A study of Mus musculus with 54 samples.

Results

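NF-kB is a family of transcription factors, and the 10 genes described here encode some of its subunits, its inhibitors and targets that feed back on it. They are Nfkb1, Nfkb2, Relb, Nfkbia, Nfkbiz, Tnfaip3, Tnip1, Tnip3, Birc3 and Tnfaip2, chosen by name and mapped to Ensembl identifiers, and they make up 10 of the 53379 gene identifiers in the files. Their change after 1 Gy in BL6, SmoA1 and Ptc was already known when they were chosen, so the values of those contrasts describe them and carry no test. RNA was sequenced from cerebellum of C57BL/6 mice (BL6), from brain tumours of mice labelled SmoA1 homo, and from tumours of Ptc het mice, which are heterozygous for loss of the Hedgehog receptor gene Ptch1. SmoA1 denotes an activated form of Smoothened, the Hedgehog signal transducer. In each model 1 group received 1 Gy of radiation and 1 group sham treatment, and all tissue was taken 5 h later. Each of the 6 groups holds 3 libraries. The labels call the 4 files of each numbered BL6 or SmoA1 sample biological replicates, but those files differed by no more than sampling noise, and each numbered sample was counted as 1 library. The labels name no promoter for the transgene and do not say whether each numbered sample is 1 animal, so an SD or a p-value measures only the spread between these samples.

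In resting cells NF-kB dimers are held in the cytoplasm by inhibitors of the I-kappa-B family. Inflammatory ligands, receptors of the innate immune system and DNA breaks lead to activation of a kinase complex that marks the inhibitor for degradation, and the freed dimers enter the nucleus. Many of the genes they then switch on encode inhibitors of the same pathway, and in brain the response is best known from endothelial cells, astrocytes and microglia.

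By the GENCODE M21 annotation on GRCm38 all 10 are protein-coding. The subunit genes are Nfkb1 (ENSMUSG00000028163) at chr3:135584655-135691547, Nfkb2 (ENSMUSG00000025225) at chr19:46304320-46312385 and Relb (ENSMUSG00000002983) at chr7:19606217-19629438. The I-kappa-B genes are Nfkbia (ENSMUSG00000021025) at chr12:55489410-55492647 and Nfkbiz (ENSMUSG00000035356) at chr16:55811375-55838899. The gene of A20 is Tnfaip3 (ENSMUSG00000019850) at chr10:19000910-19015657, and its partners are Tnip1 (ENSMUSG00000020400) at chr11:54910785-54962917 and Tnip3 (ENSMUSG00000044162) at chr6:65525313-65634040. The others are Birc3 (ENSMUSG00000032000) at chr9:7848699-7873186 and Tnfaip2 (ENSMUSG00000021281) at chr12:111442469-111455018. Counts cover the exons of each gene.

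The 12 BL6 and SmoA1 libraries held between 540652 and 842997 counts in genes, and 70.4% to 75.0% of their uniquely mapped reads lay over no annotated exon. The 6 Ptc libraries held between 34124031 and 51330146 counts, with 12.5% to 14.3% over no annotated exon. Actb lay between 26.5 and 61.8 CPM (counts scaled to library depth by edgeR) in BL6 and SmoA1, and between 791 and 2694 CPM in Ptc. Model and library type cannot be told apart where Ptc is set beside the others, so no test crosses them. The 10 markers of granule neuron progenitors, the cells from which these tumours arise, summed to 960 to 1164 CPM in SmoA1 sham against 455 to 532 CPM in BL6 sham, with 8 of 10 called higher, and to 2098 to 6261 CPM in Ptc sham. The summed counts of 4 Y-linked genes were at least 251 in both BL6 1 Gy libraries 2 and 4, in SmoA1 1 Gy library 1 and sham library 2, and reached 12852 in Ptc 1 Gy library 1. They were at most 26 in every other library, so in BL6 and Ptc the libraries with Y-linked counts are all in the 1 Gy group. The part of this difference in the values below was not tested.

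The kB motif, to which NF-kB binds, links these genes to their own pathway, and the sequence before the start site is therefore shown for members on which the results turn. RefSeq promoters on GRCm38.p6 matched 7 of the 10 members, and Nfkbiz, Nfkb1 and Relb had no entry. Each line gives the 150 bases before the RefSeq start, 5′ to 3′ on the gene's strand. Matches to the kB consensus on either strand are in capitals. Where a gene had several RefSeq promoters, the first listed is shown. Nfkb2 had 3 and Tnfaip3 had 2, the second of Tnfaip3 with 0 consensus matches. The RefSeq start of Tnip3 lies inside the GENCODE span given above.
Tnip3: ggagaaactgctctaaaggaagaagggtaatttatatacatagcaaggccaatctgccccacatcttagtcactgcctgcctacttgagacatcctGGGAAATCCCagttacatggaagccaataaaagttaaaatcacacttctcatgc
Tnfaip3: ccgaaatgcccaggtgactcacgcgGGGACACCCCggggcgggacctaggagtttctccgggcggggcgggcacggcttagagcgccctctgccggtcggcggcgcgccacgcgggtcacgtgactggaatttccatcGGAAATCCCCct
Nfkbia: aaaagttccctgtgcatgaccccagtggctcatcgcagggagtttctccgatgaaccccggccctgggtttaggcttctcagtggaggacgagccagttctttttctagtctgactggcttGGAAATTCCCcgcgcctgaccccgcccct
Nfkb2: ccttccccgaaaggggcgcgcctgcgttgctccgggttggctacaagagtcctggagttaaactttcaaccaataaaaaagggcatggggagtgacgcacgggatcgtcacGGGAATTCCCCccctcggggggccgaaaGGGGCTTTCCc
Birc3: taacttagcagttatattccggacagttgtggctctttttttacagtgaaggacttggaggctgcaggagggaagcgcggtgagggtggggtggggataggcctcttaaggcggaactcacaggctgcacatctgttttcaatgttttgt
These windows lie at chr6:65590248-65590397 on the plus strand for Tnip3, chr10:19015411-19015560 on the minus strand for Tnfaip3, chr12:55492648-55492797 on the minus strand for Nfkbia, chr19:46304587-46304736 on the plus strand for Nfkb2 and chr9:7873171-7873320 on the minus strand for Birc3.

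In promoter windows of 300 bases, which add bases on both sides of those printed, the kB consensus was present in 6 of the 7 members matched. Birc3 was the exception. Of all 27025 genes with a promoter there, 9.55% held it. The relaxed motif GGGNNNNNCC, searched on both strands and containing every consensus match, was present in 7 of 7 members and in 53.5% of all genes. In Tnip3 the match GGGAAATCCC began 54 bases before the start, and it reads as a match on the other strand too. The first Nfkb2 promoter held GGGAATTCCC at 39 bases and GGGGCTTTCC at 11 bases before its start. A match is a description of sequence, and it does not show that a factor binds there. Of the other pathway genes listed for comparison, 24 of 74 with a promoter (32.4%) held the consensus, with 4 of 6 among other Rel and I-kappa-B genes and 3 of 20 among kinases and adaptors.

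In SmoA1 tumours all 10 members had a higher mean after 1 Gy than after sham, and 7 of the 10 had no overlap between the groups, where 9.69% of 16690 genes had all 1 Gy libraries above all sham libraries. Tnip3, encoding a member of the protein family that binds A20, had the highest fold change of the 10. It had 3, 4 and 1 counts in sham libraries 1, 2 and 4, and 49, 49 and 29 counts in 1 Gy libraries 1, 2 and 3. These are 4.45, 5.09 and 1.34 CPM in sham and 73.0, 61.9 and 42.6 CPM after 1 Gy. The Tnip3 counts were 127 after 1 Gy and 8 in sham, a ratio per gene count of 16.2 with an exact 95% interval of 7.96 to 38.2 that covers counting error only. The fitted log2 fold change of Tnip3 was 3.96 ± 0.40 (SE).

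**Figure D1:**
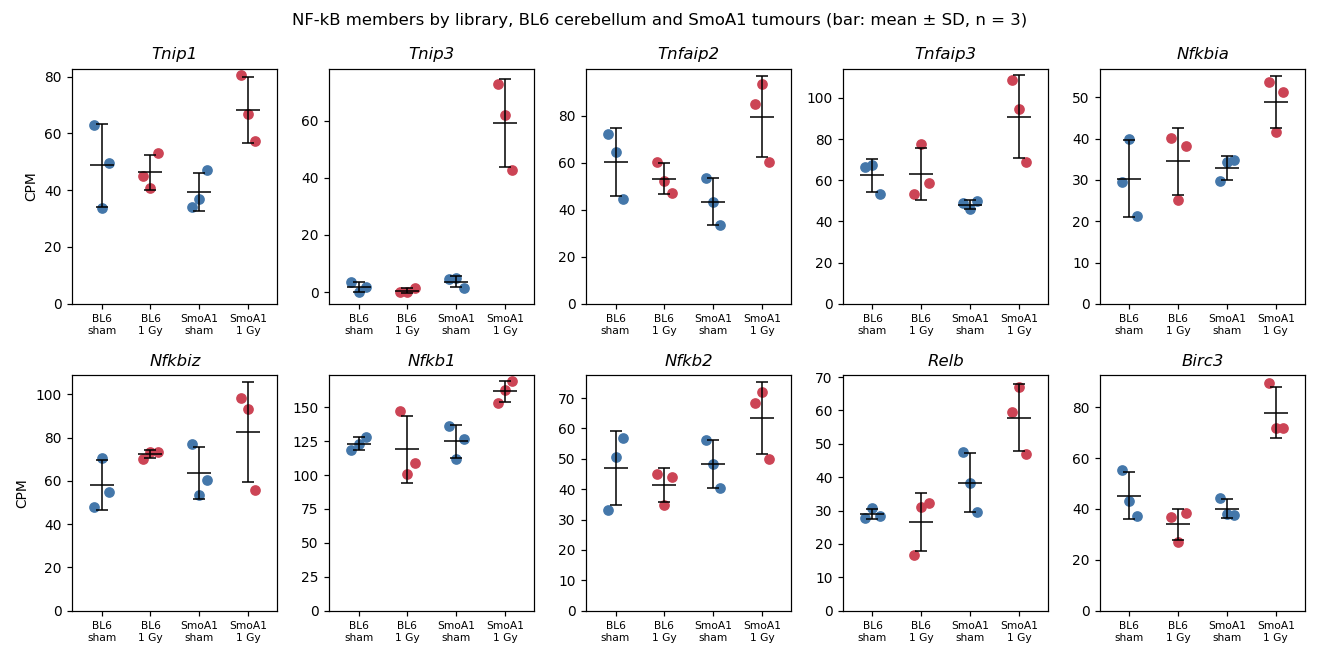
CPM of each member in the 12 BL6 and SmoA1 libraries, with each point a library and the bar giving the mean ± SD of 3. Tnip3 stands between 42.6 and 73.0 CPM in SmoA1 after 1 Gy and at 5.09 CPM or less in the other 9 libraries.

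Tnfaip3 and Tnip1 act together as feedback inhibitors. Tnfaip3 encodes A20, an enzyme that edits ubiquitin chains and shuts off signalling from receptors. It lay at 48.9, 45.8 and 49.7 CPM in SmoA1 sham and at 109, 94.7 and 69.0 CPM after 1 Gy. All 1 Gy libraries were above all sham libraries, and the log2 fold change of Tnfaip3 was 0.91 ± 0.20. Tnip1 encodes a partner of A20 and lay at 34.1, 36.9 and 47.0 CPM in sham and 80.4, 66.9 and 57.3 CPM after 1 Gy. The Tnip1 groups did not overlap, with a log2 fold change of 0.78 ± 0.21.

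Nfkbia encodes I-kappa-B alpha, the inhibitor that holds NF-kB in the cytoplasm. It lay at 29.7, 34.3 and 34.9 CPM in SmoA1 sham and 53.6, 41.7 and 51.4 CPM after 1 Gy, with a log2 fold change of 0.55 ± 0.23 and no overlap. Nfkbiz encodes a nuclear I-kappa-B protein that acts with NF-kB on its target genes. Its sham values of 77.1, 53.4 and 60.4 CPM overlapped the 1 Gy values of 98.3, 93.5 and 55.8 CPM, and its log2 fold change was 0.38 ± 0.21. Library 3 of the 1 Gy group gave the low Nfkbiz value, and it was the lowest of its group for 8 of the 10 members.

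Birc3 encodes a ubiquitin ligase that acts in signalling from tumour necrosis factor receptors and restrains cell death. It lay at 44.5, 38.2 and 37.6 CPM in SmoA1 sham and at 89.4, 72.0 and 72.0 CPM after 1 Gy, a log2 fold change of 0.95 ± 0.19. The 1 Gy values of Birc3 were all above the sham values. Tnfaip2, a gene first described as induced by tumour necrosis factor, lay at 53.4, 43.2 and 33.6 CPM in sham and 84.9, 93.5 and 60.2 CPM after 1 Gy. The Tnfaip2 groups did not overlap either, with a log2 fold change of 0.88 ± 0.22. An antisense gene shares 314 exonic bases with Tnfaip2, and these unstranded reads cannot be divided between them.

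The subunit genes had log2 fold changes between 0.37 and 0.60. Nfkb1 encodes the precursor of the p50 subunit and lay at 136, 112 and 126 CPM in SmoA1 sham and 153, 163 and 169 CPM after 1 Gy. The Nfkb1 groups were apart by a narrow gap, and the log2 fold change was 0.37 ± 0.13. Nfkb2, the precursor of p52 in the non-canonical branch, lay at 56.3, 48.3 and 40.3 CPM in sham and 68.5, 72.0 and 49.9 CPM after 1 Gy. The Nfkb2 groups overlapped, its log2 fold change was 0.40 ± 0.21, and genes on the other strand share 531 and 299 of its exonic bases. Relb, whose protein pairs with p52, lay at 47.5, 38.2 and 29.5 CPM in sham and 59.6, 66.9 and 47.0 CPM after 1 Gy. The Relb groups overlapped by a narrow margin, and its log2 fold change was 0.60 ± 0.23.

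By the edgeR quasi-likelihood test with Benjamini-Hochberg adjustment, 4 of the 10 members were called higher in SmoA1 at an adjusted p under 0.05, namely Tnip3, Tnfaip2, Tnfaip3 and Birc3, where 1.98% of all genes were called higher. The members were chosen with this contrast known, so nothing is read from that count. Their median log2 fold change was 0.69, against -0.02 over all genes tested. With all 18 libraries in a single fit 0 members were called. Tnip3 passed the filter on low counts only through its 1 Gy libraries, so its call carries no weight. Birc3 was not called without 1 Gy library 1 (edgeR adjusted p = 0.0898). Tnfaip2 was not called without 1 Gy library 1 or 2 or without sham library 2 or 4, where its edgeR adjusted p was 0.152, 0.227, 0.0788 and 0.118. Tnfaip3 was not called without 1 Gy library 1 or 2 or sham library 1, at an edgeR adjusted p of 0.119, 0.110 and 0.0572. In bulk tissue a change in the number of cells of a type and a change in RNA per cell cannot be told apart.

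Marker lists of other cells moved in the same libraries. The summed level of 10 neutrophil markers was 207 to 255 CPM after 1 Gy and 120 to 141 CPM in sham. Of the 4 neutrophil markers tested 2 were called higher, where 1.98% of all genes were. Only 2 of the 10 passed the filter on low counts in BL6. Markers that pass only through high 1 Gy libraries are bound to rise, so this count is a description. Mmp9 is on this list and on that of other NF-kB target genes used further below. Ly6g, a defining neutrophil marker, had 5, 3 and 0 counts after 1 Gy and 1, 0 and 0 in sham. The summed level of 12 endothelial markers was 746 to 818 CPM against 681 to 715 CPM, with 0 of 12 called, and that of 14 microglia and macrophage markers was 515 to 553 CPM against 478 to 516 CPM, with 0 of 14 called. Mature cerebellar neuron markers summed to 1126, 1004 and 635 CPM in 1 Gy libraries 1, 2 and 3 against 534 to 630 CPM in sham. Of the 10 tested 4 were called higher, and their median log2 fold change was 0.70, beside 0.69 for the members. Library 3 was the lowest, as it was for most members and for the neutrophil and the astrocyte and Bergmann glia sums. The 10 granule neuron progenitor markers summed to 832 to 962 CPM against 960 to 1164 CPM, with 1 called lower, and the 9 pericyte and fibroblast markers to 579 to 624 CPM against 483 to 534 CPM, with 1 called higher. Astrocyte and Bergmann glia markers summed to 649 to 769 CPM against 715 to 910 CPM, with 0 of 10 called. The 6 erythrocyte markers summed to 52.1 to 66.1 CPM against 29.5 to 45.8 CPM, with 1 of the 2 tested called higher. The 7 T cell markers summed to 104 to 121 CPM against 85.2 to 119 CPM, with 0 of 2 called. The part of these cells in the member values was not tested.

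In BL6 cerebellum the members showed no common direction. Of the 9 that passed the filter on low counts, 3 had a positive log2 fold change, their median was -0.04 against -0.00287 over all genes, and 0 were called, where 0.00628% of 15918 genes were called higher. Tnip3 did not pass, with 2, 0 and 1 counts in sham libraries 1, 2 and 3 and 0, 0 and 1 counts in 1 Gy libraries 2, 3 and 4. Birc3 lay at 55.5, 43.0 and 37.3 CPM in sham and 36.7, 27.1 and 38.2 CPM after 1 Gy, overlapping, with a log2 fold change of -0.38 ± 0.25. Nfkbiz lay at 48.1, 70.6 and 55.0 CPM in sham and 70.1, 73.6 and 73.5 CPM after 1 Gy, with a log2 fold change of 0.31 ± 0.19. It was the 1 member whose groups were apart when scaled within BL6, where 4.61% of all genes had 1 Gy above sham in every library, and they overlap on the scale printed, which covers both models. The other 7 had log2 fold changes between -0.18 and 0.19. The change of Birc3 in SmoA1 exceeded that in BL6 by 1.34 ± 0.31 on the log2 scale, given with no test since both changes were known when the gene was chosen.

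In Ptc tumours 9 members passed the filter, and all 9 had a positive log2 fold change, with a median of 1.71. None was called by edgeR, where 0% of 19571 genes were called and 7.26% had an unadjusted p under 0.05, as did 7 of the 9 members. DESeq2 called Tnfaip3 and Relb higher, where it called 1.08% of 19498 genes higher. In 6 of the 9 the groups did not overlap, against 7.06% of all genes with the 1 Gy libraries above sham, and nothing is read from this since the contrast was known when the members were chosen.

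Relb had the tightest groups relative to its change, at 3.13, 3.88 and 3.64 CPM in Ptc sham libraries 1, 2 and 3 and 9.20, 18.2 and 12.3 CPM after 1 Gy, a log2 fold change of 1.90 ± 0.38. Nfkb2 lay at 5.09, 7.23 and 5.06 CPM in sham and 7.87, 32.3 and 16.6 CPM after 1 Gy. The inhibitor gene Nfkbia lay at 29.9, 42.3 and 39.3 CPM in sham and 47.4, 150 and 94.7 CPM after 1 Gy. All 3 genes had every 1 Gy library above every sham library, and library 2 was the highest of them.

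Nfkbiz lay at 8.50, 11.04 and 8.65 CPM in Ptc sham and 13.6, 88.1 and 22.6 CPM after 1 Gy, a log2 fold change of 2.14 ± 0.71. Birc3 lay at 2.33, 2.93 and 2.62 CPM in sham and 4.07, 23.8 and 6.94 CPM after 1 Gy, a log2 fold change of 2.14 ± 0.70. Tnfaip3 lay at 5.74, 7.81 and 5.26 CPM in sham and 10.2, 20.2 and 15.3 CPM after 1 Gy, a log2 fold change of 1.28 ± 0.38. In Nfkbiz and Birc3 a single 1 Gy library stood several times above the other 2, whereas Tnfaip3 was more even.

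Tnfaip2 lay at 3.64, 2.33 and 3.66 CPM in Ptc sham and 3.62, 16.2 and 14.1 CPM after 1 Gy, so 1 Gy library 1 was within the sham range. Nfkb1 lay at 50.6, 45.4 and 41.5 CPM in sham and 44.1, 79.5 and 61.5 CPM after 1 Gy, and Tnip1 at 18.3, 33.0 and 19.4 CPM in sham and 24.3, 31.9 and 22.7 CPM after 1 Gy. Both overlapped, with log2 fold changes of 0.43 ± 0.27 and 0.16 ± 0.32. Tnip3 was filtered out, with 1, 1 and 6 counts in sham and 9, 16 and 36 counts after 1 Gy, and its 61 counts against 8 give a ratio per gene count of 9.14 with an exact 95% counting interval of 4.36 to 22.1.

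**Figure D2:**
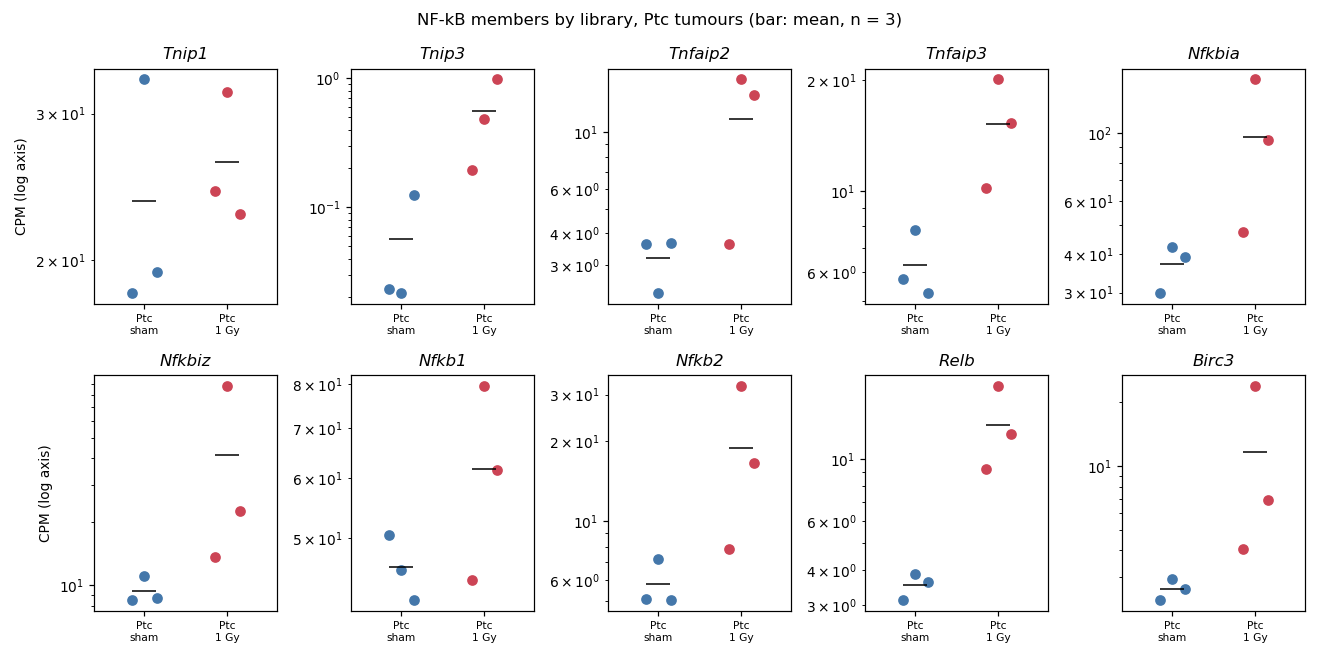
CPM of each member in the 6 Ptc libraries on a log axis whose range differs by panel, with each point a library and the bar the mean of 3. The 1 Gy points of Nfkbia lie at 47.4, 94.7 and 150 CPM, above the sham points.

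Ptc 1 Gy library 2 was the highest of its group for 9 of the 10 members, and library 1 the lowest for 9. Relative to the sham mean, the median of the 9 members other than Tnip3 was 1.36 times in library 1, 5.04 times in library 2 and 2.55 times in library 3. The summed microglia and macrophage markers followed the same order, at 229, 1305 and 729 CPM in 1 Gy libraries 1, 2 and 3 against 195 to 288 CPM in sham. Endothelial markers summed to 193, 1145 and 230 CPM after 1 Gy against 129 to 443 CPM in sham, and none of the 12 was called. Astrocyte and Bergmann glia markers, at 729.6, 4442.5 and 1772.8 CPM in 1 Gy libraries 1, 2 and 3, were in the same order too, against 1076 to 3501 CPM in sham, and pericyte and fibroblast markers stood at 209, 1163 and 221 CPM against 149 to 250 CPM. Mature cerebellar neuron markers ran the other way, at 2929, 357 and 776 CPM, with a median log2 fold change of -3.50 over the 11 tested. In sham libraries 1, 2 and 3 they stood at 588, 7971 and 2326 CPM. Sham library 2 was thus far above the other sham libraries, and 1 Gy library 1 was above sham libraries 1 and 3. Neutrophil markers summed to 3.06, 23.7 and 24.4 CPM against 6.51 to 7.59 CPM. None of these lists held a gene called by edgeR, which called 0% of all genes in Ptc and recovered 0 of 100 planted 4-fold changes. DESeq2 called the neuron markers Pcp2, Calb1, Rgs8 and Car8 lower after 1 Gy, at adjusted p of 0.0407, 0.0486, 0.0190 and 0.0440. It also called Gdf10, of the astrocyte and Bergmann glia list, lower (DESeq2 adjusted p = 0.0040). No marker of these lists was called higher by DESeq2, which called 321 genes in either direction. The part of these cells in the member values was not tested. Without both libraries numbered 2, a comparison chosen after the data were seen, all 9 members still had a positive log2 fold change, with a median of 1.15 and 0 called.

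**Figure D3:**
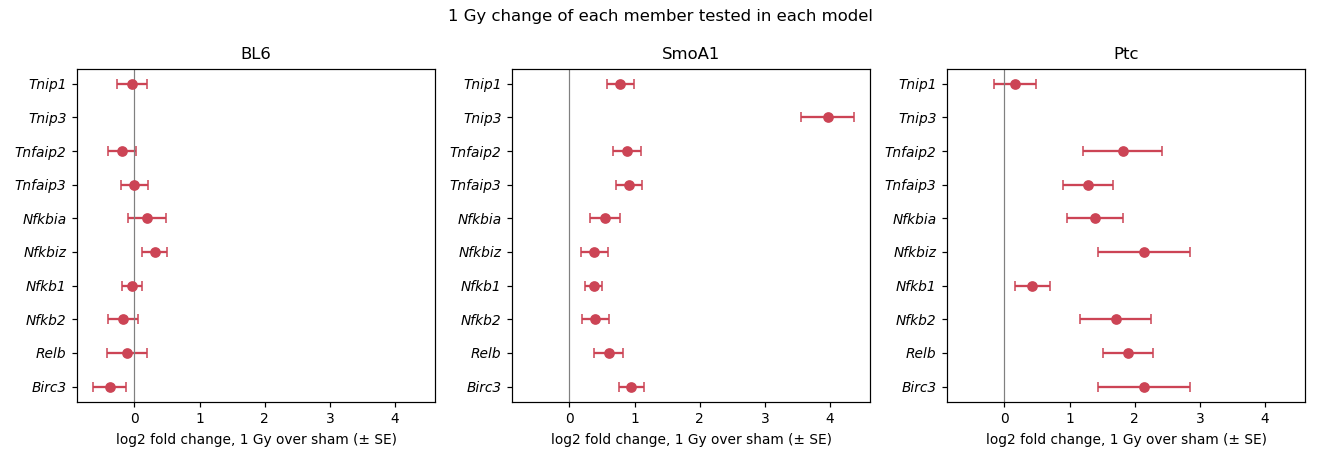
Log2 fold change after 1 Gy, with its SE, for each member tested in each model (9 in BL6, 10 in SmoA1, 9 in Ptc). The SmoA1 and Ptc points all lie above 0, and in BL6 3 of 9 do.

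Set side by side, Tnip3 had the highest ratio of 1 Gy to sham counts in both tumour models, 16.2 in SmoA1 and 9.14 in Ptc, the latter from few counts. Of the 9 members tested in Ptc, Nfkbiz and Birc3 had the highest log2 fold change, at 2.14 each, and in SmoA1 these were at 0.38 and 0.95. Nfkb1 was low in both, at 0.37 in SmoA1 and 0.43 in Ptc, and Tnip1 was at 0.78 in SmoA1 and 0.16 in Ptc. Differences between SmoA1 and Ptc were not tested, since library type differs.

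Without radiation no member tested was called different between SmoA1 tumours and BL6 cerebellum. This contrast was not used to choose them, though it shares its sham libraries with those that were. Of the 9 members tested, 0 were called by edgeR and 0 by DESeq2, where 16.5% of 16428 genes were called, and 1 had an unadjusted p under 0.05, as did 27.5% of all genes. That was Tnfaip2, with a log2 difference of -0.48 ± 0.23 (SmoA1 minus BL6) and an adjusted p of 0.173 by edgeR. Tnfaip3 was the member whose groups did not overlap, with a log2 difference of -0.38 ± 0.20 and an adjusted p of 0.226 by edgeR, where 16.1% of all genes had SmoA1 below BL6 in every library. With 9 members these counts are near the shares over all genes, so nothing particular to the members is read from them. A p that misses the threshold does not show that the levels were equal, and the other 7 log2 differences lay between -0.28 and 0.40.

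After 1 Gy the levels of all 10 members were higher on average in SmoA1 than in BL6, and 7 of 10 did not overlap, where 11.6% of 16990 genes had SmoA1 above BL6 in every library. These libraries were known when the members were chosen, so the values are a description. The log2 difference was 1.16 ± 0.22 for Birc3 and 1.11 ± 0.26 for Relb, and it lay between 0.19 and 0.61 for the other members apart from Tnip3. Tnip3 had 127 counts in SmoA1 and 1 in BL6.

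Levels between genes are compared per exonic kilobase. Nfkbia was the highest member in all 6 groups, at 18.8 ± 5.80 CPM per kb in BL6 sham, 20.5 ± 1.79 in SmoA1 sham and 23.1 ± 4.04 in Ptc sham (SD, n = 3 each). Tnip3 was the lowest in all 6, at 0.33 ± 0.18 CPM per kb in SmoA1 sham and 5.42 ± 1.41 after 1 Gy. In SmoA1 sham the levels of Nfkb2, Nfkb1 and Relb, at 10.5 ± 1.75, 10.4 ± 1.02 and 9.88 ± 2.31 CPM per kb, differed by less than their spread. In Ptc sham the levels spanned a wider range, from Nfkbia to Tnip1 at 6.65 ± 2.32 CPM per kb and on to Birc3 at 0.525 ± 0.060.

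The genes nearest to Tnip3 in pattern over the 12 BL6 and SmoA1 libraries, by the root mean square difference of centred log2 CPM, were Serpina3i at 0.461, Slc10a6 at 0.467 and Sele at 0.585, where Tnip3 itself had an SD of 1.75. For Nfkbia they were Xpnpep1 at 0.183, Rps6kb2 at 0.192 and Hspb8 at 0.193, against an SD of 0.360 for Nfkbia. Counts per library ran from 0 to 49 for Tnip3 and from 12 to 36 for Nfkbia. Counting error thus enters these distances, and its part was not tested. The 12 libraries include those known when the members were chosen, so the distances are a description.

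The rest of the pathway was followed through 5 lists with 95 genes, which were chosen with results of these data known. In SmoA1, 6 of the 89 tested rose after 1 Gy by the edgeR test and 0 fell, where 1.98% of all genes were called higher and 0.192% lower. Of 27 other NF-kB target genes 5 rose, 26 had a positive log2 fold change and the median was 0.72, against -0.02 over all genes. Of the 30 on that list, 17 passed the filter on low counts in BL6 and 19 in SmoA1 against BL6 in sham. Genes that pass only through high 1 Gy libraries are bound to rise, so these counts and this median are a description. Since all 5 lists were chosen with results known, the calls and p-values of their single genes, here and below, are a description too. Selp, a platelet and endothelial adhesion protein, stood at 45.6 ± 4.81 CPM after 1 Gy and 13.7 ± 2.60 in sham (SD, n = 3), a log2 fold change of 1.72 ± 0.29 (edgeR adjusted p = 0.00347). The endothelial adhesion gene Sele stood at 38.9 ± 3.94 against 9.40 ± 6.32 CPM, a log2 fold change of 2.00 ± 0.38 (edgeR adjusted p = 0.0065). Selp and Sele passed the filter only through their 1 Gy libraries, so their calls carry no weight. Vcam1, which binds leukocyte integrins, had a log2 fold change of 0.78 ± 0.14 (edgeR adjusted p = 0.00548). Traf1 and Csf3 also rose and are named beyond the rule for named genes, after their values were seen.

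Among 6 other Rel and I-kappa-B genes Bcl3, a nuclear I-kappa-B protein, rose from 21.8 ± 6.86 to 50.0 ± 2.79 CPM in SmoA1, a log2 fold change of 1.18 ± 0.27 (edgeR adjusted p = 0.0207). None of 26 kinases and adaptors passed, with a median log2 fold change of 0.05, and none of 13 other inhibitors, with a median of 0.12. Of 17 ligands and receptors 0 passed. Tnfsf11, the ligand of the receptor RANK, had the smallest p, with a log2 fold change of 1.61 ± 0.44 and an edgeR adjusted p of 0.0636. Il1b, an inflammatory cytokine, followed at 1.28 ± 0.37 with 0.0774.

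In BL6, 0 of 75 pathway genes tested were called by edgeR after 1 Gy, and 4 had an unadjusted p under 0.05, as did 3.98% of all genes. In Ptc, 0 of 89 were called by edgeR, 12 were called higher by DESeq2, where it called 1.08% of all genes higher, and 30 had an unadjusted edgeR p under 0.05, as did 7.26% of all genes. On simulated data edgeR did not recover changes planted in Ptc, so a lack of calls there does not show a lack of change. The Ptc genes with the smallest p among ligands and receptors were Il1a, a cytokine, and Cd14, a coreceptor for bacterial lipopolysaccharide. Cd14 lay at 8.60, 165 and 90.7 CPM in 1 Gy libraries 1, 2 and 3, and at 1.17, 1.94 and 1.71 CPM in sham. Il6, an inflammatory cytokine, had 64, 594 and 180 counts after 1 Gy and 1, 0 and 1 counts in sham. The order of the libraries in Cd14 and Il6 was that of the microglia, endothelial, astrocyte and pericyte marker sums alike. The part of these cells in the values was not tested.

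**Figure D4:**
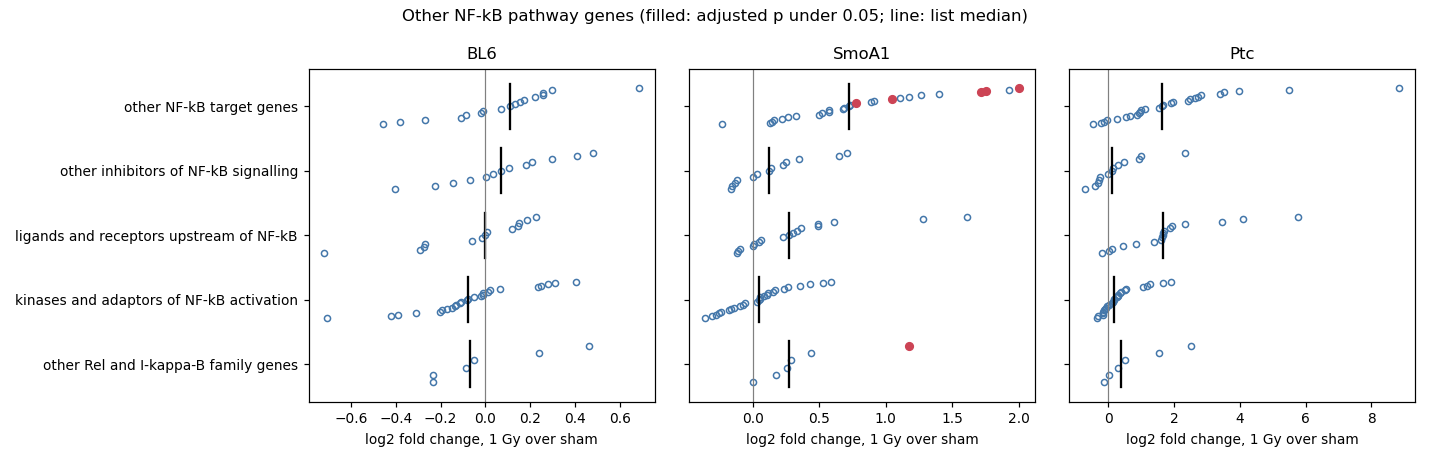
Log2 fold change after 1 Gy of the other pathway genes, each point a gene and each line a list median, with horizontal ranges that differ by panel. Filled points passed an adjusted p under 0.05, and the 6 of them are all in SmoA1.

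Without radiation, 2 of 79 other pathway genes were higher in SmoA1 than in BL6 and 4 were lower, where 7.07% of all genes were called higher and 9.4% lower. Cxcl10, a chemokine, was higher by a log2 difference of 1.74 ± 0.42 (edgeR adjusted p = 0.00464), and Itch, a ubiquitin ligase, by 0.46 ± 0.13 (edgeR adjusted p = 0.019). Traf1, an adaptor of tumour necrosis factor receptors, was lower in sham SmoA1 by a log2 difference of -0.95 ± 0.22 (edgeR adjusted p = 0.0035), while it rose in SmoA1 after 1 Gy by 1.04 ± 0.23. Both contrasts share the SmoA1 sham libraries. Irak2, Tnfsf13b and Tnip2 were the other genes lower in SmoA1.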

How the data were processed

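The authors deposited raw read counts per gene, as whole numbers, unstranded and by strand. Per the labels' protocols total RNA was extracted with RNeasy and depleted of ribosomal RNA. The submitters' processing notes name mm10 and Cell Ranger 5.0.1. The aligner: not given in the sources used here. The 54 files make 18 libraries: the 4 files of each numbered BL6 or SmoA1 sample, which the labels call biological replicates, differed by no more than sampling noise (variance to mean 0.858 to 0.938) and were summed, so n = 3 counts numbered samples. Symbols came from GENCODE M21 (GRCm38).

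Unstranded counts were filtered with filterByExpr (minimum count 10), scaled by TMM and tested for each pair of groups with edgeR 4.0.16 quasi-likelihood in R 4.3.3, with Benjamini-Hochberg adjustment over all genes and a threshold of 0.05. The SE is the log2 fold change divided by the root of F. CPM per library were scaled within the 12 BL6 and SmoA1 libraries and within the 6 Ptc libraries, and group means of tested genes within their comparison. The members and lists were chosen with earlier results of these data known. All members are named, and from each other list the called genes up to 3 by smallest p, or up to 2 that did not pass. Not all of the latter are printed. Alternatives were DESeq2 1.42.0, other scaling factors and filters, the counts of a single strand, a joint fit of every library, a block for sample number, an adjusted p under 0.01 and omission of each library. Methods were tested on simulated data with planted changes of 2-fold and 4-fold, 100 of each. At 2-fold edgeR recovered 82 in BL6 and 79 in SmoA1, and at 4-fold 100 in both, with 14 and 10 false calls. In Ptc it recovered 0 of either size. Smaller changes, as most members had in BL6 and SmoA1, were not simulated. Figures used matplotlib 3.10.9.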

Additional observations from a re-analysis of the deposited data

Results flagged for a closer look

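Birc3 is listed here because the difference between its 1 Gy changes in SmoA1 and BL6 had an edgeR adjusted p under 0.05. Birc3 encodes a ubiquitin ligase of tumour necrosis factor receptor signalling. The log2 difference of the changes, SmoA1 minus BL6, was 1.34 ± 0.31 over 12 libraries. Birc3 was higher after 1 Gy in 3 of 3 SmoA1 libraries than in any sham library, and 1 Gy and sham overlapped in BL6. Both changes were known when the gene was chosen, so the difference is a description and the flag carries no weight as a test.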

How the results depend on the processing

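No member log2 fold change in SmoA1 changed sign in 133 alternative values. In BL6 the sign held in 105 of 119, in Ptc in 134 of 135 (Tnip1 was the exception, at -0.00077 at its lowest), and for SmoA1 against BL6 in sham in 111 of 119. No called value reversed. The cause of the changes below was not tested, except that the stricter threshold and the filters change what is called or tested by construction.

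In BL6 and SmoA1 the strand column used held 99.5% of its counts in genes on the plus strand, so that alternative left out minus-strand genes. Of the members in SmoA1 it tested Tnip3, Tnfaip2 and Nfkb2, and Tnip3 and Tnfaip2, called in the report, were called there too. Tnfaip3 and Birc3 had no value in it.

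For 1 Gy in SmoA1, 4 members, 6 other pathway genes and 363 genes in all were called in the report. Members called higher were 2 with the strand column, 0 with all 18 libraries in 1 fit and 1 at an adjusted p under 0.01, and they ranged from 1 to 5 over each library left out. The lowest, 1, came without 1 Gy replicate 1. Other pathway genes called higher were 13 with no low-count filter, 3 with the strand column, 0 with all 18 libraries in 1 fit and 3 at an adjusted p under 0.01, and 2 to 8 over each library left out, the lowest without 1 Gy replicate 2. All genes called numbered 225 by DESeq2, 969 with no filter, 614 with a mean of at least 1 CPM, 174 with the strand column, 0 with all 18 libraries in 1 fit and 128 at an adjusted p under 0.01, and 109 to 445 over each library left out, the lowest without 1 Gy replicate 2. Tnfaip2 lost its call with DESeq2 and without 1 Gy replicates 1 and 2 and sham replicates 2 and 4, and Tnfaip3 without 1 Gy replicates 1 and 2 and sham replicate 1.

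For 1 Gy in Ptc, DESeq2 called 2 members, 12 other pathway genes and 321 genes in all, and all 18 libraries in 1 fit called 8, 31 and 1152. With no filter 1 gene was called. For 1 Gy in BL6, all genes called numbered 1 by DESeq2, 16 with no filter, 8 with a mean of at least 1 CPM, 0 with the strand column and 0 with all 18 libraries in 1 fit, and 0 to 6 over each library left out.

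For SmoA1 against BL6 in sham, all genes called numbered 1727 by DESeq2, 4422 with no filter, 4162 with a mean of at least 1 CPM, 1447 with the strand column, 17 with all 18 libraries in 1 fit and 1732 at an adjusted p under 0.01. Other pathway genes called higher were 1 by DESeq2, 9 with no filter, 6 with a mean of at least 1 CPM, 0 with all 18 libraries in 1 fit and 1 at an adjusted p under 0.01, and 1 to 4 over each library left out. Those called lower were 1 by DESeq2, 2 with the strand column, 0 with all 18 libraries in 1 fit and 1 at an adjusted p under 0.01, and 1 to 5 over each library left out.

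For SmoA1 against BL6 after 1 Gy, all genes called numbered 702 by DESeq2, 2235 with no filter, 1958 with a mean of at least 1 CPM, 612 with the strand column, 0 with all 18 libraries in 1 fit and 695 at an adjusted p under 0.01. The counts of members are a description here, since these libraries were known when they were chosen. Members called higher were 3 with the settings of the report, 1 with the strand column and 0 with all 18 libraries in 1 fit, and 3 to 5 over each library left out. Other pathway genes called higher were 8 with the strand column, 0 with all 18 libraries in 1 fit and 11 at an adjusted p under 0.01. Those called lower were 1 with no filter and 0 to 1 over each library left out.

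Whether sample numbers pair the libraries is not stated, and 3 libraries per group cannot settle it. The correlations of deviations of same-numbered Ptc libraries, for example, were -0.001, 0.094 and 0.190. Those of differently numbered Ptc libraries ran from -0.207 to 0.150. With the sample number as a replicate block, 5 members and 551 genes in all were called in SmoA1, 7 genes in BL6, and 2 other pathway genes were lower in SmoA1 sham. Tnip3 did not pass the filter in BL6, where no library held more than 2 of its counts. It did not pass in Ptc either, at 0.194, 0.488 and 0.984 CPM after 1 Gy, though the Ptc libraries were the deepest.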
